A study of Mus musculus with 12 samples.

Results

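The genes of the interleukin-6 (IL-6) cytokine family and of its feedback inhibitors were followed in mouse bone marrow-derived mast cells (BMMCs), mast cells grown in culture from bone marrow. The members were the 9 rows of the count table with the symbols *Il6*, *Lif*, *Osm*, *Il6st*, *Il6ra*, *Socs1*, *Socs2*, *Socs3* and *Cish*, of 16234 genes in all. They were chosen by symbol, with no measured value in the rule. The study addressed what the transcription factor ELK4 contributes to mast cells at rest and after activation through FcϵRI, the high-affinity IgE receptor.

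RNA was sequenced in 12 libraries, which fell into 6 groups of 2 replicates by genotype and treatment. BMMCs were labelled wild type (WT), heterozygous (HZ) or homozygous knockout (KO) for *Elk4*. They came from conventional *Elk4* knockout mice on the C57BL/6N background and WT littermates, aged 6 to 12 weeks and of both sexes. A conventional knockout is carried by every cell of the animal, so marrow precursors and the growing culture lacked the allele as well. All cultures grew for 4 to 8 weeks in medium with the cytokines IL-3 and SCF (10 ng/ml of each), and more than 80% of the cells were positive for CD117 and FcϵRI. Stimulated cells were loaded overnight with 0.5 µg/ml anti-DNP IgE and given 100 ng/ml of the antigen DNP-HSA for 1 h. Unstimulated cells carried the label untreated, which does not say whether they had received IgE. The source of a replicate (animal, culture or well) was not stated, so p-values measure only the spread between these samples, which may be technical.

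IL-6, leukaemia inhibitory factor (LIF) and oncostatin M (OSM) are secreted cytokines that signal through receptors sharing the subunit gp130, which is encoded by *Il6st*. IL-6 first binds its own receptor chain, encoded by *Il6ra*, and gp130 then activates JAK kinases, which phosphorylate STAT transcription factors. STATs switch on the genes of the SOCS proteins (*Socs1*, *Socs2*, *Socs3*) and of CIS (*Cish*), which bind activated receptors or JAKs and damp the signal. IL-3, on which BMMCs grow, signals through JAK2 and STAT5 and uses the same inhibitors. Activated mast cells are a known source of IL-6.

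Promoter sequences are shown for the members that moved most with stimulation and for *Socs1*, which moved the other way. RefSeq windows on build GRCm38.p6, from 250 bases before to 50 after the annotated start, were at hand for 7 of the 9 members. *Osm* and *Socs2* had no entry. Each stretch is read 5′ to 3′ on the gene's strand, and capitals mark the motif matches. The *Il6* stretch lies on chr5:30013050-30013099, plus strand, and its capitals are a match to the NF-κB consensus 44 to 35 bases before the start. The *Lif* stretch lies on chr11:4257320-4257366, plus strand, with a match to the AP-1 motif TGANTCA at positions -228 to -222. The *Socs3* stretch, on chr11:117969492-117969540, minus strand, holds the STAT motif TTCNNNGAA at -154 to -146. The *Cish* stretch, on chr9:107296639-107296678, plus strand, holds 2 STAT motifs, at positions 1 to 9 and 12 to 20 counted from the start. The *Socs1* stretch, on chr16:10785597-10785760, minus strand, holds 3 matches to CCGGAA, the core bound by ETS factors, the family of ELK4.
Il6: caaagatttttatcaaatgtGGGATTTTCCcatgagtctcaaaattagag
Lif: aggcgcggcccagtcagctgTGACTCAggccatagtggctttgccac
Socs3: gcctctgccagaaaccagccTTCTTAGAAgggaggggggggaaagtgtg
Cish: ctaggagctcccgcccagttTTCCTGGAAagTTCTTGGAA
Socs1: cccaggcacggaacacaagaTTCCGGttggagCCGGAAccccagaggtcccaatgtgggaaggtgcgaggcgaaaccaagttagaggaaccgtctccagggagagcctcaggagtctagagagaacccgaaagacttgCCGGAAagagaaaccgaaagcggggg

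Motifs were searched on both strands, and no match overlapped another in the 7 windows. The STAT motif was found in *Socs3* and *Cish* and in 8.3% of all 32851 promoter windows. AP-1 matches lay in *Lif* and, at -249 to -243, in *Il6*, against 7.81% of all windows. The NF-κB consensus was matched in *Il6* alone of the 7, and in 4.51% of all windows. CCGGAA lay in *Socs1* and *Il6st* and in 14.9% of all windows. The CArG box, the site of SRF, with which ELK4 binds DNA, had no match in the 7 windows and was found in 1.63% of all. A match describes letters in these windows, and no binding was measured here.

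Library totals lay between 29697958 and 35531667 counts, and the biological coefficient of variation between replicates was 4.01%. Without stimulation *Elk4* itself had counts of 2426 and 2740 under the WT label, 3238 and 2837 under HZ, and 2613 and 2253 under KO. These counts did not follow the labels, and a deletion inside the gene need not lower its summed count. WT, HZ and KO therefore stand below for what the libraries were labelled. No direction in this text rests on a check of the genotype from these counts. The paper itself reports a western blot of WT, HZ and KO BMMCs as evidence that *Elk4* was deleted. Whether the blotted cultures were those sequenced is not stated. The cells carried the mast cell markers that were listed. The summed level of 11 of the 12 markers was 46890 to 57590 CPM, the normalized count per 1e6 counts of a library, scaled by edgeR's TMM factor. Among the 10 macrophage or monocyte markers the sum was 5.72 to 13.8 CPM, with *Adgre1* at 98 to 209 counts, *Cd14* at 9 to 145, *Ccr2* at 5 to 100 and *Fcgr1* at 9 to 45. *Csf1r* lay at 23 counts or fewer, the C1q genes at 6 or fewer, and *Mrc1* and *Marco* at 1 or less in every library. The neutrophil, lymphocyte, dendritic and stromal lists each summed to 0.364 CPM or less. Those sums cover 6 of 8, 4 of 6, 2 of 4 and 3 of 6 listed markers in that order, as the others had no row. The 4 basophil markers summed to 465 to 674 CPM, of which *Cd200r3* made up 454 to 667 CPM, while *Mcpt8* lay at 11 CPM or less. In bulk RNA, fewer cells of a type and less RNA per cell cannot be told apart.

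The first comparison asked which members changed within 1 h of FcϵRI stimulation. *Il6*, *Lif*, *Osm*, *Socs3* and *Cish* rose in every genotype, the 3 ligands by 16-fold or more. Of the 8 members tested, 6 rose and 0 fell in WT, where 3.71% of the 12208 genes tested rose and 3.06% fell. In HZ cells 5 rose and 0 fell (7.02% and 7.28% of all genes), and in KO cells 6 rose and 0 fell (3.73% and 2.88% of all genes). A gene was called here at a Benjamini-Hochberg adjusted p below 0.05 from edgeR's quasi-likelihood test and a change of at least 2-fold. The median log2 fold change of the 8 members was 2.78 in WT, 3.49 in HZ and 2.90 in KO, against -0.01, -0.005 and -0.007 over all genes. *Il6ra* did not pass the filter on low counts and was not tested.

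**Figure D1:**
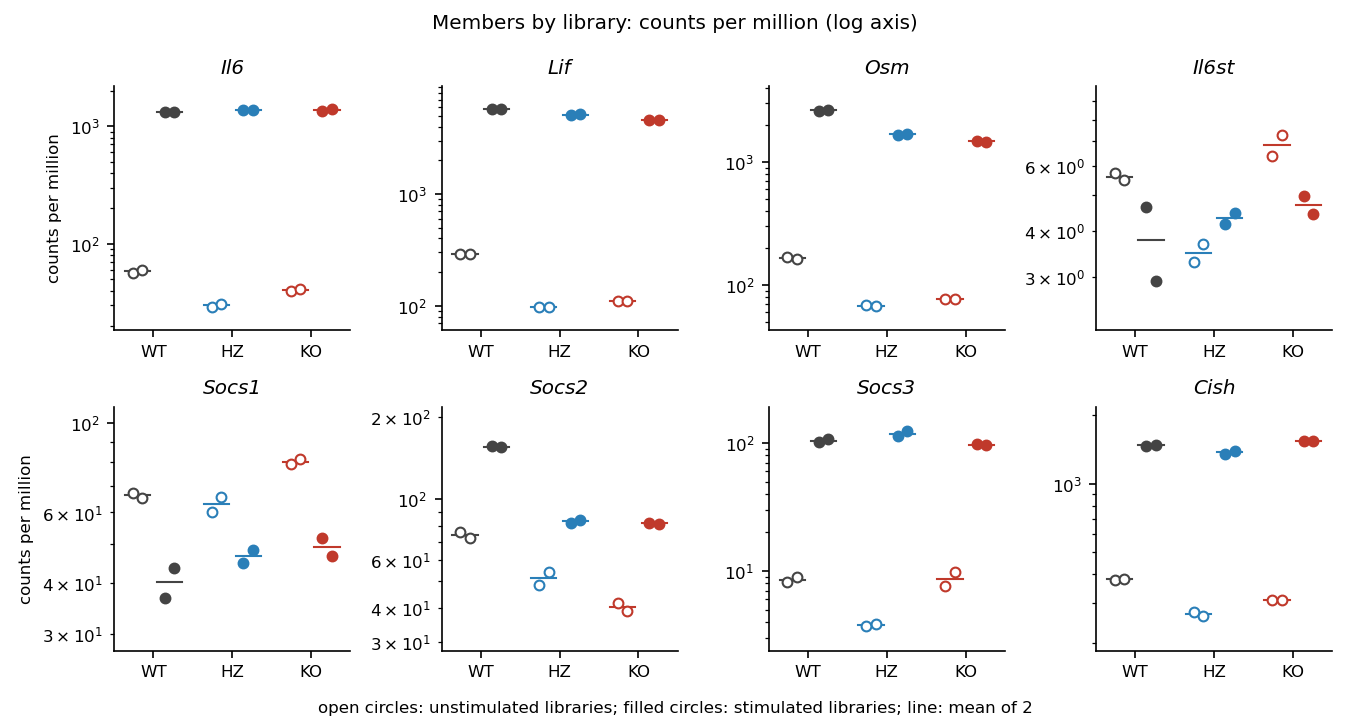
CPM of the 8 members tested, on a log axis, in each of the 12 libraries: open circles are unstimulated and filled circles stimulated libraries, grouped by genotype label, and the line is the mean of 2. The filled circles lie far above the open ones for *Il6*, *Lif*, *Osm*, *Socs3* and *Cish* in every genotype, and below them for *Socs1*; the open circles of the 3 ligands are highest in WT and lowest in HZ.

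*Il6* (NCBI Gene 16193) encodes the founding cytokine of the family. It had 1871 and 2111 counts in unstimulated and 39493 and 39580 in stimulated WT cells. The 2 groups were far apart, at 58.4 ± 2.74 and 1329 ± 0.36 CPM (SD, n = 2). The log2 fold change was 4.51 (SE 0.0335, edgeR adjusted p = 3.2e-57), which is 22.8-fold. HZ cells went from 1012 in each replicate to 45189 and 40559 counts, and KO cells from 1502 and 1457 to 37871 and 40115. Stimulated levels were nearly the same in the 3 genotypes, while the starting levels were not. The log2 fold change was accordingly 5.52 (SE 0.0363, edgeR adjusted p = 9.13e-60) in HZ and 5.09 (SE 0.0348, edgeR adjusted p = 6.46e-59) in KO.

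*Lif* encodes LIF, known for keeping mouse embryonic stem cells undifferentiated. Its counts were 9645 and 10164 in unstimulated and 172415 and 171743 in stimulated WT cells. They were 3382 and 3182 before and 166964 and 153011 after stimulation in HZ, and 4170 and 3942 before and 128018 and 132124 after in KO. No other member reached as many counts in any stimulated library. The log2 fold change was 4.31 (SE 0.0232) in WT, 5.73 (SE 0.0254) in HZ and 5.37 (SE 0.0248) in KO, with edgeR adjusted p of 7.18e-63, 1.84e-66 and 1.26e-65.

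*Osm* encodes OSM, a cytokine made by blood cells. In WT it had 5564 and 5671 counts before and 77849 and 79230 after stimulation. The corresponding counts were 2408 and 2222, then 54220 and 50494, in HZ, and 2891 and 2736, then 41598 and 41922, in KO. Stimulated WT libraries lay above all stimulated HZ and KO libraries. *Osm* rose by 4.00 on the log2 scale in WT (SE 0.0291, edgeR adjusted p = 1.53e-57), 4.62 in HZ (SE 0.0311, edgeR adjusted p = 2.58e-59) and 4.26 in KO (SE 0.0304, edgeR adjusted p = 4.29e-58).

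Together, *Il6*, *Lif* and *Osm* held 0.0575% ± 3e-05 (SD, n = 2) of all counts in unstimulated WT libraries and 0.881% ± 3e-04 after 1 h. The share went from 0.0211% ± 0.00014 to 0.754% ± 0.0055 in HZ and from 0.0252% ± 2.6e-05 to 0.672% ± 0.0013 in KO (SD, n = 2). *Lif* made up most of the summed counts of these ligands in each stimulated library. Per length the order was different: in stimulated WT cells the mean level was 1251 FPKM for *Osm*, 1053 for *Il6* and 955 for *Lif*, with no overlap between neighbours. In stimulated HZ and KO cells *Il6* came first (1109 and 1089 FPKM), then *Lif* (863 and 757) and *Osm* (811 and 698), again without overlap. FPKM are the deposited levels per gene length and library total.

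**Figure D2:**
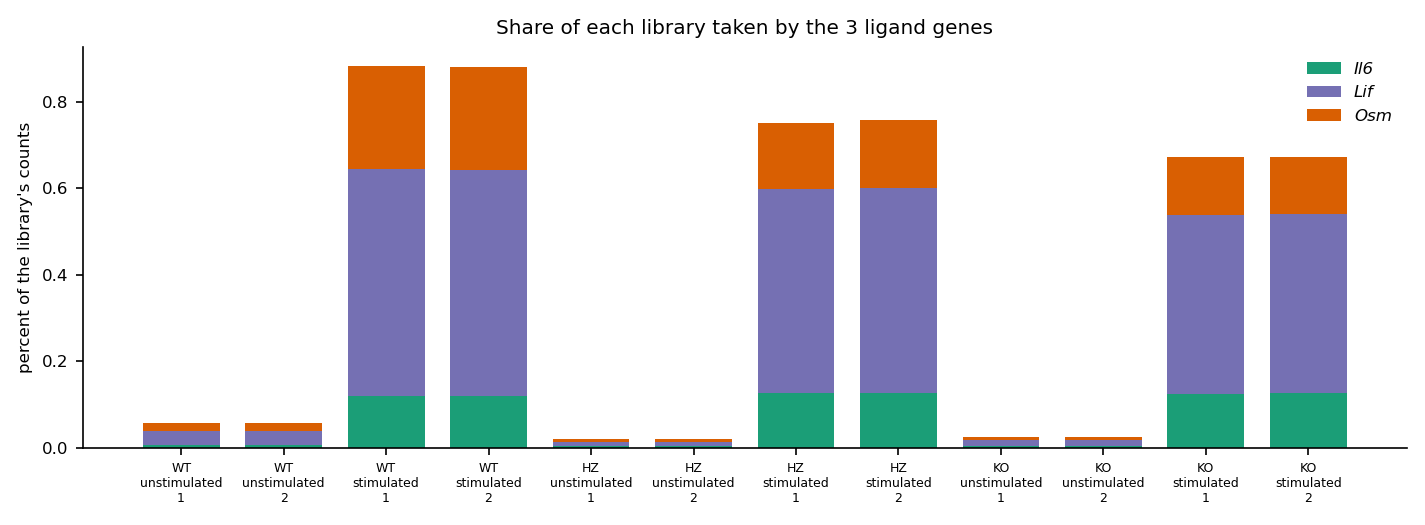
Percent of each library's counts taken by *Il6*, *Lif* and *Osm*, stacked, for the 12 libraries by genotype label, treatment and replicate. The 2 stimulated libraries stand near 0.88% in WT, 0.75% in HZ and 0.67% in KO, and every unstimulated library is under 0.06%.

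*Il6st*, the gene of gp130, was sparse in these cells. It had 190 and 192 counts in unstimulated and 138 and 87 in stimulated WT libraries, 114 and 121 then 137 and 132 in HZ, and 239 and 258 then 138 and 128 in KO. In WT and KO the stimulated libraries lay below the unstimulated ones, in HZ above. The log2 fold change was -0.57 in WT (SE 0.204, edgeR adjusted p = 0.0199) and -0.54 in KO (SE 0.197, edgeR adjusted p = 0.0254), short of 2-fold, and 0.31 in HZ (SE 0.209, edgeR adjusted p = 0.19). With single libraries left out, the adjusted p reached 0.386 in WT and 0.169 in KO. *Il6ra*, the gene of the IL-6 binding chain, had 0 to 6 counts in every library, so no difference was detectable at this depth. Its WT counts were 5 and 4 unstimulated and 1 and 4 stimulated, against 0 and 1 then 1 and 1 in HZ and 0 and 0 then 2 and 6 in KO.

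The 4 inhibitor genes did not move alike. *Socs3* encodes the inhibitor that binds gp130 itself. It went from 271 and 313 to 3010 and 3189 counts in WT, from 128 in each replicate to 3691 and 3663 in HZ, and from 284 and 347 to 2725 and 2761 in KO. Stimulated groups were nearer to each other than unstimulated ones, where HZ stood lowest. *Socs3* rose by 3.60 on the log2 scale in WT (SE 0.0794, edgeR adjusted p = 4.07e-37), 4.96 in HZ (SE 0.0902, edgeR adjusted p = 8.89e-41) and 3.49 in KO (SE 0.0788, edgeR adjusted p = 1.14e-36).

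*Cish*, whose product CIS docks on STAT5-activating receptors, was the most abundant member per length before stimulation, at 122 FPKM in WT. Its counts rose from 12549 and 13277 to 43643 and 44256 in WT. They rose from 9441 and 8615 to 44444 and 41382 in HZ, and from 11575 and 10883 to 42828 and 44269 in KO. The log2 fold change was 1.96 (SE 0.0266), 2.37 (SE 0.0272) and 2.32 (SE 0.027), with edgeR adjusted p of 4.18e-46, 2.95e-49 and 5.24e-49.

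*Socs2* encodes an inhibitor known for limiting growth hormone signalling. Its counts were 2518 and 2532, then 4655 and 4623, in WT. They were 1684 and 1782, then 2692 and 2479, in HZ, and 1558 and 1376, then 2274 and 2340, in KO. The change was near the 2-fold threshold: 1.07 on the log2 scale in WT (SE 0.051, edgeR adjusted p = 2.98e-23) and 1.02 in KO (SE 0.0555, edgeR adjusted p = 5.63e-21) were called, and 0.70 in HZ (SE 0.0541, edgeR adjusted p = 1.28e-15) was not. Scaled by library totals, the first 2 values were 0.76 and 0.73 and no longer reached 2-fold, and without the second unstimulated KO library the KO value was 0.97. That scaling also moved the median of all genes to -0.32 in WT, -0.24 in HZ and -0.29 in KO.

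*Socs1*, whose product blocks JAK kinases directly, was the one inhibitor of the 4 with lower levels after stimulation. It had 2224 and 2284 counts before and 1092 and 1303 after in WT, 2094 and 2162 then 1471 and 1433 in HZ, and 2971 and 2884 then 1443 and 1343 in KO. The stimulated libraries lay below the unstimulated ones in each genotype. The log2 fold change was -0.72 in WT (SE 0.0671, edgeR adjusted p = 1.14e-12), -0.43 in HZ (SE 0.0661, edgeR adjusted p = 1.76e-07) and -0.70 in KO (SE 0.0652, edgeR adjusted p = 8.05e-13), short of 2-fold in all 3. With library totals as the scale, the WT value was -1.03 and passed 2-fold. By limma it did so too, at -1.005 on log2(FPKM + 1), with or without the filter, and at -1.029 on log2(FPKM + 0.1).

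**Figure D3:**
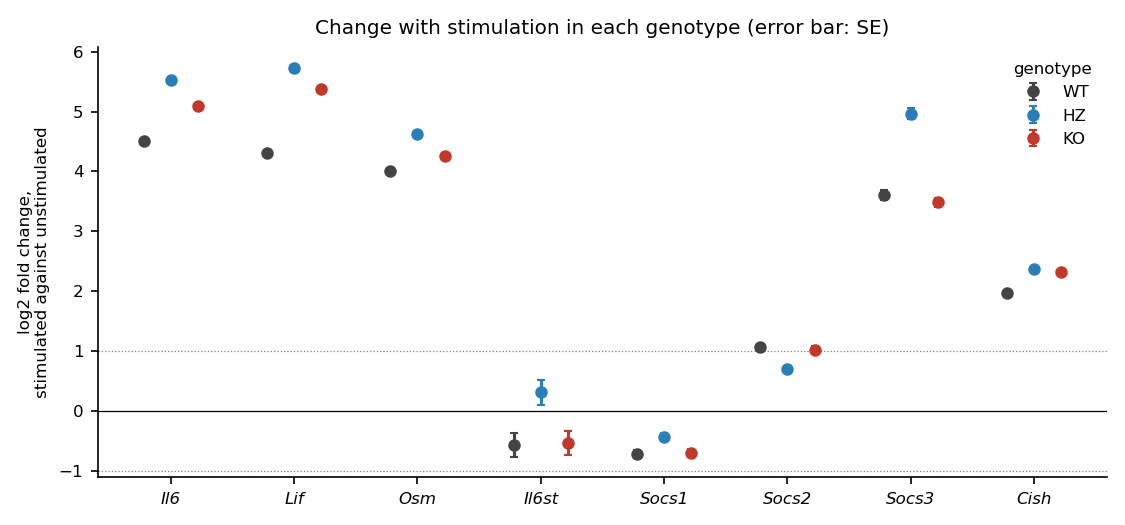
Log2 fold change of each member with stimulation, by genotype label, with the standard error of the fit as error bar; dotted lines mark 2-fold in either direction. The points run from about 4 to 6 for the ligands, from 3.49 to 4.96 for *Socs3*, near 2 for *Cish*, near 1 for *Socs2* and below 0 for *Socs1*.

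The levels per length changed order with stimulation. In unstimulated WT cells *Cish* was followed by *Osm* (96.8 FPKM), *Lif* (59.4), *Il6* (57.3) and *Socs1* (55.3), then *Socs2* (6.91), *Socs3* (3.51), *Il6st* (1.10) and *Il6ra* (0.0439). The replicate ranges of *Lif* and *Il6* overlapped, as did those of *Il6* and *Socs1*. After stimulation *Socs3* (34.5 FPKM) stood above *Socs1* (27.1) in WT and *Socs2* reached 11.7. In unstimulated HZ and KO cells *Socs1* (50.8 and 66.0 FPKM) stood above all 3 ligands, of which the highest was *Osm* at 38.8 and 44.5 FPKM. In stimulated KO cells the ranges of *Socs1* (33.2 FPKM) and *Socs3* (32.0) overlapped.

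The next comparison asked what the genotype changed in unstimulated cells. *Lif* and *Osm* stood at 0.333 to 0.467 times the WT level in HZ and KO cells, and *Socs3* was lower in HZ. Against WT, 0 members were higher and 2 lower in KO (2.64% and 4.87% of all genes were higher and lower). In HZ 0 were higher and 3 lower (3.83% and 5.32% of all genes), and KO against HZ gave 1 higher and 0 lower (1.29% and 2.06% of all genes).

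*Lif* had 291 ± 0.411 CPM in WT, 96.9 ± 0.631 in HZ and 111 ± 0.0746 in KO (SD, n = 2). It fell by 1.39 on the log2 scale in KO (SE 0.0229, edgeR adjusted p = 3.21e-41) and by 1.58 in HZ (SE 0.0233, edgeR adjusted p = 8.35e-44). *Osm* had 165 ± 4.13, 68.4 ± 1.38 and 77.1 ± 0.00946 CPM (SD, n = 2) in the same order, with log2 differences of -1.10 in KO (SE 0.0301, edgeR adjusted p = 2.21e-32) and -1.27 in HZ (SE 0.0308, edgeR adjusted p = 9.4e-35). *Il6* had 58.4 ± 2.74, 29.9 ± 1.09 and 40.6 ± 0.713 CPM (SD, n = 2). Its log2 differences of -0.53 in KO (SE 0.0378, edgeR adjusted p = 2.07e-16) and -0.97 in HZ (SE 0.04, edgeR adjusted p = 1.93e-25) were short of 2-fold. The HZ value passed 2-fold at -1.02 with library totals as the scale and at -1.01 by limma on log2(FPKM + 0.1). It was also -1.01 without the first unstimulated WT library and -1.01 without the second unstimulated HZ library. For these 3 ligands the order was WT, then KO, then HZ, so the level did not follow the number of intact alleles on the labels. KO exceeded HZ by 0.44 for *Il6* (edgeR adjusted p = 2.06e-12), 0.20 for *Lif* (edgeR adjusted p = 2.9e-09) and 0.17 for *Osm* (edgeR adjusted p = 1.55e-05), each less than 2-fold.

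Among the inhibitors, *Socs3* was lower in unstimulated HZ than in WT cells (log2 difference -1.18, SE 0.123, edgeR adjusted p = 1.85e-11) and higher in KO than in HZ by 1.19 (SE 0.121, edgeR adjusted p = 1.59e-11). KO and WT libraries overlapped, with a log2 difference of 0.01 (SE 0.103, edgeR adjusted p = 0.927). On log2(FPKM + 1) with limma, the differences of HZ were -0.85 from WT and 0.84 from KO, under 2-fold. *Socs2* was at 74.2 ± 2.56 CPM in WT, 51.3 ± 3.92 in HZ and 40.2 ± 1.96 in KO (SD, n = 2). Of the 8 members tested, it alone had an unstimulated level that stepped down from WT to HZ to KO, with log2 differences from WT of -0.53 (SE 0.0542, edgeR adjusted p = 9.27e-12) and -0.88 (SE 0.0551, edgeR adjusted p = 1.4e-18), short of 2-fold. *Cish* differed from WT by -0.30 in KO (edgeR adjusted p = 2.09e-13) and -0.51 in HZ (edgeR adjusted p = 2.21e-21). *Socs1* differed by 0.28 in KO (edgeR adjusted p = 0.000264) and by -0.07 in HZ (edgeR adjusted p = 0.352).

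*Il6st* differed from WT by -0.69 in HZ (SE 0.203, edgeR adjusted p = 0.00373) and by 0.28 in KO (SE 0.19, edgeR adjusted p = 0.238), and KO from HZ by 0.97 (SE 0.199, edgeR adjusted p = 6.68e-05). That last value passed 2-fold, at 1.06 and 1.07, without the second unstimulated HZ or the first unstimulated KO library. The summed mast cell markers were 46890 to 47960 CPM in unstimulated WT, 51130 to 52180 in KO and 56120 to 57590 in HZ libraries, the reverse of the order of the ligands. The basophil markers summed to 597 to 601 CPM in WT, 470 to 473 in KO and 673 to 674 in HZ, and the macrophage or monocyte markers to 6.61 to 7.06, 5.72 to 6.29 and 9.19 to 9.64 CPM. Their part in the ligand differences was not tested.

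In stimulated cells the comparison asked whether genotypes differed in the level reached after 1 h. Calls here needed an adjusted p below 0.05 and a fold of at least 1.5 or at most 0.66. *Osm* and *Socs2* were lower in KO and in HZ than in WT, while *Il6* reached a similar level in all 3. Against WT, 0 members were higher and 2 lower in KO (5.44% and 7.22% of all genes), and 0 higher and 2 lower in HZ (3.56% and 4.33% of all genes). KO against HZ gave 0 higher and 0 lower by edgeR (1.81% and 3.51% of all genes). At an unadjusted p below 0.05 from edgeR 4 members differed there, each by less than 1.5-fold, and DESeq2 and limma called 0 with the threshold. At an edgeR adjusted p below 0.05 without a fold threshold 4 members passed as well, and of all 12208 genes 1571 were higher and 1469 lower.

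*Osm* reached 2641 ± 28 CPM in WT, 1680 ± 39.5 in HZ and 1476 ± 27.2 in KO (SD, n = 2). Against WT this was -0.84 on the log2 scale in KO (SE 0.0253, edgeR adjusted p = 1.06e-30) and -0.65 in HZ (SE 0.0252, edgeR adjusted p = 3.82e-26). *Socs2* reached 156 ± 1.05 CPM in WT, 82.9 ± 1.29 in HZ and 81.5 ± 0.3 in KO (SD, n = 2), which is -0.94 in KO (SE 0.0513, edgeR adjusted p = 1.52e-20) and -0.91 in HZ (SE 0.0509, edgeR adjusted p = 5.43e-20). Both stimulated values lay near the 74.2 CPM of unstimulated WT cells, a difference that was not tested. *Lif* reached 5785 ± 26.5 CPM in WT, 5132 ± 62.4 in HZ and 4596 ± 7.28 in KO (SD, n = 2). Its log2 differences of -0.33 in KO (SE 0.0199, edgeR adjusted p = 4.5e-19) and -0.17 in HZ (SE 0.0199, edgeR adjusted p = 7.58e-10) were smaller than the fold required.

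*Il6* reached 1329 ± 0.36 CPM in WT, 1374 ± 3.52 in HZ and 1378 ± 23.1 in KO (SD, n = 2). It differed from WT by 0.05 in KO (SE 0.027, edgeR adjusted p = 0.128) and by 0.05 in HZ (SE 0.027, edgeR adjusted p = 0.169). *Socs3* differed by -0.10 in KO (edgeR adjusted p = 0.18) and 0.18 in HZ (edgeR adjusted p = 0.0162), and *Cish* by 0.06 (edgeR adjusted p = 0.0607) and -0.10 (edgeR adjusted p = 0.00125). *Socs1* differed by 0.29 in KO (edgeR adjusted p = 0.000621) and 0.21 in HZ (edgeR adjusted p = 0.0142). *Il6st* libraries overlapped between WT and either genotype (edgeR adjusted p = 0.246 in KO and 0.523 in HZ), though without the first stimulated WT library the KO difference was 0.69 (edgeR adjusted p = 0.0347) and would have been called.

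**Figure D4:**
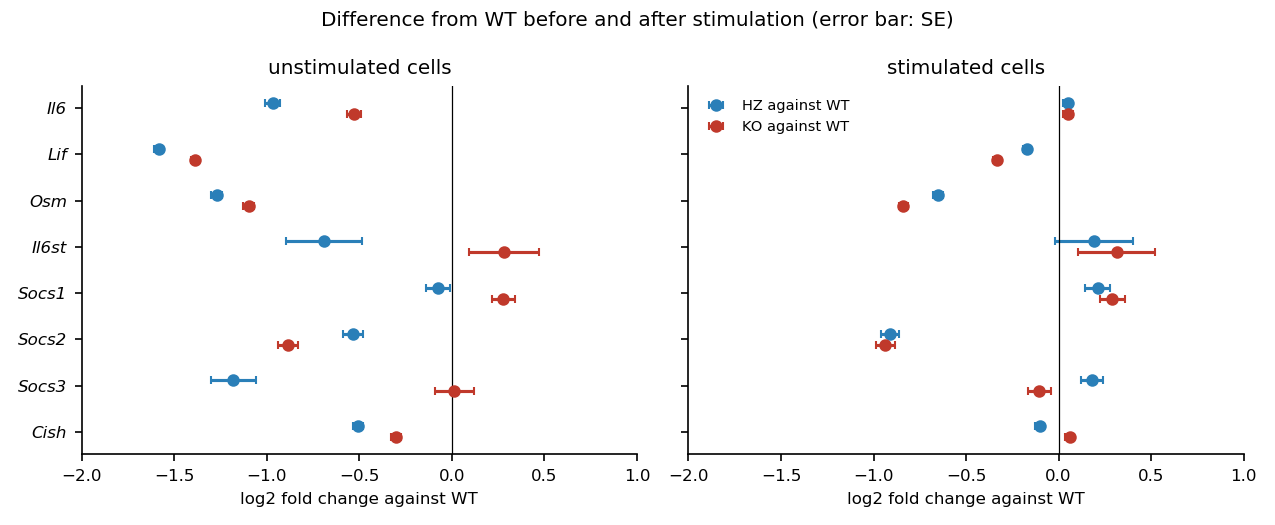
Log2 fold change of each member against WT in unstimulated (left) and stimulated (right) cells, for HZ and KO labels, with the standard error of the fit as error bar. The 3 ligands lie left of 0 before stimulation; after it *Il6* lies at 0.05 in both, *Lif* between -0.33 and -0.17 and *Osm* between -0.84 and -0.65, while *Socs2* lies at -0.91 in HZ and -0.94 in KO, against -0.53 and -0.88 before stimulation.

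The last comparison asked whether the response to stimulation itself differed between genotypes, tested as an interaction with no fold threshold. *Il6*, *Lif*, *Osm* and *Cish* had larger fold responses in KO than in WT and again in HZ than in WT. In KO the log2 response was higher than in WT for 4 members and lower for 0, against 5.44% and 3.83% of all genes. In HZ it was higher for 7 and lower for 1, against 19.9% and 18.6% of all genes, so differences of this kind were common in HZ. The difference for *Lif* was 1.06 in KO (SE 0.0303, edgeR adjusted p = 1.46e-30) and 1.41 in HZ (SE 0.0306, edgeR adjusted p = 2.7e-36). *Il6* differed by 0.58 in KO (SE 0.0465, edgeR adjusted p = 1.05e-13) and 1.01 in HZ (SE 0.0483, edgeR adjusted p = 1.46e-22). *Osm* differed by 0.26 (SE 0.0392, edgeR adjusted p = 3.33e-06) and 0.62 (SE 0.0397, edgeR adjusted p = 8.85e-18).

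The added amounts, unlike the folds, were not larger for *Lif* and *Osm*. *Il6* gained 1271 CPM in WT, 1345 in HZ and 1337 in KO. *Lif* gained 5495 CPM in WT, 5035 in HZ and 4485 in KO, and *Osm* 2476, 1612 and 1399 CPM. The larger folds of *Lif* and *Osm* in HZ and KO went with lower starting levels and with smaller gains. *Socs2* gained 81.8 CPM in WT, 31.7 in HZ and 41.4 in KO.

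Among the inhibitors, the response of *Socs3* was larger in HZ than in WT by 1.36 (SE 0.137, edgeR adjusted p = 1.61e-11), whereas in KO the difference was -0.12 (SE 0.12, edgeR adjusted p = 0.638). *Cish* differed by 0.36 in KO (SE 0.0368, edgeR adjusted p = 2e-10) and 0.41 in HZ (SE 0.0369, edgeR adjusted p = 7.67e-13). *Socs2* rose less in HZ than in WT (log2 difference -0.38, SE 0.0743, edgeR adjusted p = 4.53e-05). *Socs1* fell less in HZ than in WT, by 0.28 (SE 0.0942, edgeR adjusted p = 0.0133), and *Il6st* differed by 0.88 (SE 0.292, edgeR adjusted p = 0.0136). These last 2 calls were lost without single libraries. *Il6st* was at 0.59 (edgeR adjusted p = 0.136) without the second stimulated WT library and at 0.80 (edgeR adjusted p = 0.0509) without the first unstimulated HZ library. *Socs1* was at 0.17 (edgeR adjusted p = 0.207) without the first stimulated WT library, 0.23 (edgeR adjusted p = 0.085) without the first unstimulated HZ library and 0.23 (edgeR adjusted p = 0.0852) without the second stimulated HZ library.

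The remaining genes of the pathway were read from lists written by function. Among 8 other ligands of the family 4 could be tested, and in WT 1 rose and 0 fell. That gene was *Il31*, a cytokine known for causing itch, with 0 counts in every unstimulated library. Stimulated WT libraries held 346 and 352 counts, HZ 350 and 369, and KO 225 and 218. Set against 3 counts in each unstimulated library, *Il31* was at least 133-fold higher in WT, 131-fold in HZ and 95.2-fold in KO. Stimulated KO differed from WT by -0.58 on the log2 scale (SE 0.179, edgeR adjusted p = 0.00773), just short of the fold required. *Cntf* and *Ebi3* stayed at 67 counts or fewer, though *Cntf*, a nerve growth cytokine, rose in HZ by 1.17 (SE 0.428, edgeR adjusted p = 0.0154).

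Among 6 other receptor chains 3 were tested, and 0 rose or fell with stimulation in any genotype by edgeR, DESeq2 or limma. At an unadjusted p below 0.05 from edgeR 1 changed in WT, 1 in HZ and 0 in KO. *Lifr*, the partner of gp130 in the LIF receptor, had 1 to 25 counts, and *Il31ra*, the IL-31 receptor chain, had 0 in 11 of 12 libraries and 1 in the other. *Il27ra*, the receptor chain for IL-27, was the abundant one, at 66.4 ± 2.14 CPM in stimulated WT and 39 ± 0.743 in stimulated KO (SD, n = 2), a called log2 difference of -0.77 (SE 0.0636, edgeR adjusted p = 2.81e-14). It was lower in KO before stimulation as well, at 37.81 ± 2.42 CPM against 60.05 ± 2.02 in WT (SD, n = 2). That log2 difference of -0.67 (SE 0.0621, edgeR adjusted p = 1.05e-12) was short of the 2-fold required of unstimulated cells. *Il11ra1* lay between 89 and 231 counts.

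All 11 JAK and STAT genes were tested, and 0 rose or fell 2-fold in any genotype by edgeR, DESeq2 or limma. At an unadjusted p below 0.05 from edgeR 8 changed in WT, 10 in HZ and 6 in KO, each less than 2-fold. At an edgeR adjusted p below 0.05 without a fold threshold 7, 10 and 5 passed, beside the all-gene counts given for the receptor chains. The median log2 change of the 11 genes was -0.11 in WT, -0.32 in HZ and -0.05 in KO. The largest WT changes were -0.71 for *Stat2* (edgeR adjusted p = 1.95e-10) and -0.51 for *Stat5a* (edgeR adjusted p = 1.73e-12), a STAT that IL-3 activates. *Stat3*, the main STAT downstream of gp130, was at -0.25 (edgeR adjusted p = 2.09e-06). The log2 response was lower in HZ than in WT for 7 of the 11 and higher for 1, against 18.6% and 19.9% of all genes. Among the 7 were *Stat3*, at -0.59 in HZ against -0.25 in WT, and *Jak2*, at -0.75 against -0.15. Both started higher in HZ, *Stat3* at 181.8 CPM against 139.4 in WT and *Jak2* at 184.1 against 143.6. After stimulation *Stat3* stood at 121.2 CPM in HZ and 117.3 in WT, and *Jak2* at 109.8 and 129.4. Of 13 other inhibitors of JAK-STAT signalling, 0 rose or fell 2-fold in WT and KO by edgeR, DESeq2 or limma, though 8 did change at an unadjusted p below 0.05 from edgeR in each. At an edgeR adjusted p below 0.05 without a fold threshold, 8 of the 13 passed in WT and 7 in KO. Of all 12208 genes, 2733 were higher and 2797 lower in WT at that limit, and 2485 and 2498 in KO. In HZ 1 of the 13 fell by at least 2-fold, *Sh2b3*, the gene of the adaptor LNK, by 1.03 on the log2 scale (SE 0.0414, edgeR adjusted p = 2.24e-26). *Socs4* was at -0.49 in WT (edgeR adjusted p = 1.06e-08), and *Ptpn6*, the gene of the phosphatase SHP-1, at 0.41 (edgeR adjusted p = 1e-13).

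Of 12 genes known to be driven by STAT3 or STAT5, 2 rose and 0 fell in WT (3.71% and 3.06% of all genes), 4 rose and 0 fell in HZ (7.02% and 7.28%), and 5 rose and 1 fell in KO (3.73% and 2.88%). DESeq2 called 2, 4 and 6 of them, and limma on log2(FPKM + 1) 1, 2 and 1. *Junb*, which encodes an AP-1 subunit, rose by 3.10 in WT (SE 0.0277), 3.84 in HZ (SE 0.029) and 3.84 in KO (SE 0.0289), with edgeR adjusted p of 7.43e-54, 3.3e-57 and 4.38e-57. The kinase gene *Pim1* rose by 1.06 in WT (edgeR adjusted p = 1.37e-32) and 1.27 in KO (edgeR adjusted p = 5.05e-36), and changed by 0.61 in HZ (edgeR adjusted p = 3.79e-23), short of 2-fold and lower than in WT (log2 difference -0.45, edgeR adjusted p = 1.1e-12). *Myc* and the survival gene *Mcl1* were at 0.94 and 0.93 in WT, just under 2-fold, and passed it in HZ and KO, as did the cyclin gene *Ccnd1* at 67 counts or fewer. *Bcl3*, the gene that fell in KO, went from 32 and 37 to 8 and 5 counts. The median of this list was 0.37 in WT, 0.45 in HZ and 0.47 in KO. These genes have other inducers as well, and STAT activity was not measured here. Of the 4 receptor genes for the culture cytokines IL-3 and SCF, 0 were called with stimulation by edgeR, DESeq2 or limma. An unadjusted edgeR p below 0.05 was found for 3 in WT, 4 in HZ and 3 in KO. The same numbers passed at an adjusted p below 0.05 without a fold threshold, beside the all-gene counts given for the receptor chains. The largest WT change was -0.32 for *Csf2rb* (edgeR adjusted p = 7.39e-21).

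**Figure D5:**
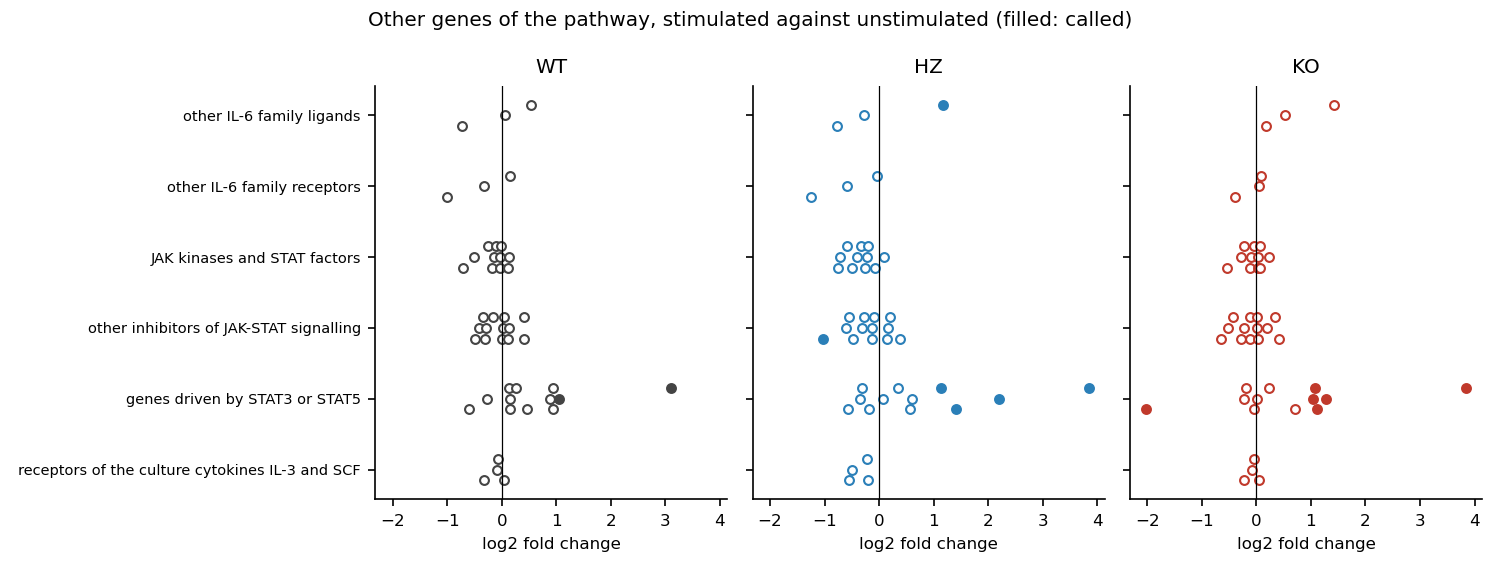
Log2 fold change with stimulation of the tested genes of 6 pathway lists in WT, HZ and KO cells, 1 point a gene, filled where called; *Il31*, with 0 unstimulated counts, is left out. The JAK and STAT genes cluster near 0, and *Junb* is the filled point farthest to the right, at 3.10 in WT and 3.84 in HZ and in KO.

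Over the 12 libraries, the genes whose log2 CPM ran most closely with each member were ranked by Pearson's r, as a description. For *Il6* they were *Ccl7*, *Nfkbiz* and *Hbegf* (r = 0.9995, 0.9995 and 0.9994). For *Lif* they were *Fam110c*, *Junb* and *Map3k8* (0.9986, 0.9984 and 0.9983), and for *Osm* *Phlda1*, *Plau* and *Fam110c* (0.9987, 0.9987 and 0.9977). *Socs3* ran with *Ier5*, *Ifrd1* and *Tiparp* (0.9975, 0.9957 and 0.9952), *Cish* with *Nr4a3*, *Plk3* and *Tob2* (0.9991, 0.9991 and 0.9989). *Socs2* ran with *Nrros*, *Nfatc1* and *Cass4* (0.9888, 0.9825 and 0.9816), *Socs1* with *Eef1aknmt*, *Trim65* and *Trabd* (0.9715, 0.9696 and 0.9655) and *Il6st* with *Trmt2a*, *Opa3* and *Scaper* (0.9094, 0.8981 and 0.8973). The 12 points fall into stimulated and unstimulated libraries, so for the induced members r mostly reflects that split.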

How the data were processed

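RNA of BMMCs was sequenced in 12 libraries, 2 for each of 6 groups given by the labels' genotype and treatment. The authors deposited raw read counts per gene, and the submitters' processing notes name fastp, HISAT2, HTSeq and GRCm39 without versions. The authors deposited FPKM values for the same genes. A check showed them to be counts divided by the library total and by a constant for each gene. That this constant is the gene's length follows from the name FPKM and was not checked. The annotation and whether counting used strand are not given in the sources used here, so reads of overlapping genes cannot be told apart.

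The tests used edgeR 4.0.16 in R 4.3.3. The filterByExpr filter left 12208 of 16234 genes, TMM factors were 1.08 to 1.12 without and 0.902 to 0.924 with stimulation, and 1 quasi-likelihood model had a mean for each group (6 residual and 38.9 prior degrees of freedom, prior count 0.125). Tests were two-sided, with Benjamini-Hochberg adjustment over all genes tested. SE is the size of the log2 fold change divided by the square root of the F statistic. CPM are counts per 1e6, scaled by TMM. The scripts were tested on simulated data. Totals of 29697958 to 35531667 counts leave little counting error for abundant members, and 2 libraries a group set the precision.

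The members were fixed by symbol. Of each pathway list, values were given for members of the 4 largest WT changes with a mean of at least 10 counts, and others named were chosen after their values were seen, as were the members printed with sequences. Likeness used log2 CPM with a prior count of 2. The members, lists and tests were chosen with earlier results of these data known. Alternatives were DESeq2 1.42.0, its size factors or library totals in edgeR, no filter or at least 10 counts in every library, only the groups compared, 2 forms of replicate block, an adjusted p limit of 0.01, calls at any fold, a prior count of 2, leaving out each library, and limma 3.58.1 on log2(FPKM + 1) or log2(FPKM + 0.1), for genes at a mean of 0.5 FPKM or more or, for the first, for all genes. Motifs were searched as letters in 32851 RefSeq promoter windows (GRCm38.p6), a build other than that of the counts, so no position of a read rests on them.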

Additional observations from a re-analysis of the deposited data

Results flagged for a closer look

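The response to stimulation differed between genotypes, by the test of the difference itself (edgeR interaction, adjusted p below 0.05), for 4 members in KO and 8 in HZ. Both sets share the WT libraries. Between KO and WT the log2 responses differed by 0.578 for *Il6*, 1.055 for *Lif*, 0.258 for *Osm* and 0.36 for *Cish*, each larger in KO. Between HZ and WT they differed by 1.015 for *Il6*, 1.412 for *Lif*, 0.619 for *Osm*, 0.881 for *Il6st*, 0.285 for *Socs1*, 1.361 for *Socs3* and 0.407 for *Cish*, each higher in HZ, and by -0.378 for *Socs2*. The positive values of *Socs1* stand for a smaller fall. Groups of 2 libraries allow no test for a deviating library.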

How the results depend on the processing

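Over 26 alternative settings, 1394 of 1424 recomputed member values kept their side of the threshold, 19 lost a call, 11 gained one and 0 turned the direction of a called value. Of the 1394, 24 changed sign, all for 6 differences that were not called and were 0.19 or less in size on the log2 scale. Without a fold threshold more members were called in the genotype comparisons. In unstimulated cells they were 6 for KO against WT, 7 for HZ against WT and 8 for KO against HZ. After stimulation they were 4, 6 and 4 in the same order. Many of all 12208 genes passed as well. In that order 2795 were higher and 2646 lower, 3099 and 3175, and 2854 and 2661 in unstimulated cells. In stimulated cells the counts were 2588 and 2339, 2250 and 2016, and 1571 and 1469. On log2(FPKM + 1), with or without the filter, limma called 0 members for unstimulated KO against HZ, where *Socs3* fell under 2-fold, since the added 1 is large beside its FPKM. Leaving out 1 library gave 1 to 2 members there. *Socs2* lost its WT and KO response call by library totals and in the 3 FPKM settings, and the *Socs1* interaction in HZ was lost in limma without a filter (adjusted p = 0.0598). The fall of *Socs1* in WT gained a call by library totals and in the 3 FPKM settings. The lower *Il6* of unstimulated HZ against WT cells gained a call in the 4 settings given above.

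No source says what a replicate number stands for. Replicate differences of the 6 groups correlated at -0.0515 to 0.0617 over 9768 genes, positive in 10 of 15 pairs of groups. No effect shared by equal numbers was seen, which cannot tell whether equal numbers came from the same animal or culture. With a replicate block across all groups, and for the responses and their differences also with a block within genotype, the number of members called was that without it: 6, 5 and 6 for the response in WT, HZ and KO, 2, 3 and 1 for unstimulated and 2, 2 and 0 for stimulated KO against WT, HZ against WT and KO against HZ, and 4 and 8 for the response in KO and HZ against WT. Depth limited *Il6ra*, *Il6st*, *Lifr* and *Bcl3*, which had few counts.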
